A study of Mus musculus with 6 samples.

Results

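Collagens, laminins and integrins were described across 6 microarrays of frontal cortex from mouse models of the reeler mutation. The genes were chosen by symbol: Col, a number, a and a number for collagen chains; Lama, Lamb or Lamc and a number for laminin chains; Itga or Itgb and a number for integrin chains. Of 70 such genes with a probe set (a set of short probes against 1 transcript), 45 had a mean signal of at least 89 over the 6 arrays and are described here, among 11578 of 18194 genes that passed the same minimum. They comprised 27 of 42 collagens, 6 of 10 laminins and 12 of 18 integrins. Integrins with a letter in the symbol, such as Itgav, fall outside this choice and are given with the related genes.

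Each array held RNA of a single frontal cortical lobe from 1 mouse aged 21 days, of a mixed C57BL/6 and 129 strain, and there was 1 array per genotype. A cross of mice heterozygous for apoER2 and Vldlr gave the wild type (WT), the VLDLR KO, the APOER2 KO and the APOER2-VLDLR KO, called the double KO here. The DAB1 KO and the REELIN KO came from Dab1 and Reeler heterozygous matings of their own, with no wild type array from those matings used here. Reelin, from the gene Reln, is a secreted signal that binds Vldlr and apoER2 (gene Lrp8) on the cell surface, and Dab1 passes the signal on within the cell. Arrays of the Dab1, Reln and double KO are called the reeler models and the WT, Vldlr KO and Apoer2 KO arrays the comparison arrays. The labels name no targeting allele, transgene or Cre.

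Collagens, laminins and integrins are the fibres, sheets and receptors through which cells hold on to the matrix around them. In the brain, fibrillar collagens lie mainly in the meninges, the connective tissue covering the surface, while type IV collagens and laminins form the basement membrane under the meninges and around vessels. Integrins are receptors of an alpha and a beta chain that bind this matrix, and integrins of radial glia and neurons take part in anchoring glial endfeet and in the placement of migrating cortical neurons. The integrin of the Itga3 and Itgb1 chains has been reported to bind reelin.

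Array medians lay between 86.5 and 92.3, and bacterial control probe sets, which match no mouse transcript, read at most 28.4 to 39.6 per array. Reln read 79.9 on the Reln KO array against 1498 to 1880 elsewhere, and Lrp8 read 4.2 and 13.7 on the Apoer2 and double KO arrays against 342 to 379.8 elsewhere. The brightest Vldlr probe set read 218 and 127 on the Vldlr and double KO arrays against 473 to 600.0 elsewhere, and Dab1 read 479 on the Dab1 KO array against 516 to 626 elsewhere. All animals are labelled male, but Xist read 3368 to 4006 on 5 arrays and 125 on the Apoer2 KO array, which alone had Eif2s3y (368) and Gh (3705). Cortical genes were bright on every array (Slc17a7 2825 to 4730), but so was the choroid plexus gene Ttr (6991 to 8377). All 11 of 15 listed cerebellar granule cell genes past the signal minimum were lower in the reeler models, 8 of them at an adjusted p below 0.05 in limma, with a median log2 difference of -1.63. Their summed signal was 4135 to 5540 in the reeler models and 12760 to 15938 in the comparison arrays. All 7 of 9 listed genes of Purkinje cells, also of the cerebellum, were lower on average in the reeler models. Their median log2 difference was -0.22, with 0 at an adjusted p below 0.05 in limma, and Pcp2 among them read 1829 to 2817. How much cerebellar tissue each sample held, and its part in the values below, was not tested. In bulk tissue, fewer cells of a type and less RNA per cell cannot be told apart.

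Differences below are of log2(signal + 28.1) and understate changes of dim genes. A class difference is the mean of the 3 reeler models minus the mean of the 3 comparison arrays. Its p comes from limma, a linear model fitted to all 11578 genes, with Benjamini-Hochberg adjustment over them. Arrays of different genotypes stand in for replicates, so the p-values measure only the spread between these 6 arrays.

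In limma 0 of the 45 reached an adjusted p below 0.05, higher or lower, against 0.130% of all genes tested (0.0173% higher and 0.112% lower), and their adjusted p-values ran from 0.147 (Col6a1) to 0.986 (Itga9). At an unadjusted limma p below 0.05 there were 7 of the 45, which is 15.6% against 11.0% of all genes. Higher were Col6a1 and Col6a2 (4.44% of the 45, against 5.26%), and lower were Col1a1, Col19a1, Lamb2, Itga3 and Itga7 (11.1%, against 5.71%). That count was 1 without the Apoer2 KO array and 4 without the WT array. The 3 reeler models lay entirely above the 3 comparison arrays for Col6a1 and Col6a2 (4.44%, against 9.08% of all genes) and entirely below for Col3a1, Col19a1, Lamb2 and Itga7 (8.89%, against 8.49%), which makes 13.3% in either direction against 17.6%. These shares without overlap are near or below those of all genes, while the share lower at an unadjusted p is above it. That share and the genes lower without overlap include Lamb2, whose mean over the reeler models (83.1) was below the signal minimum. Lamb2 passed on its mean over all arrays, with a mean of 117.5 over the comparison arrays. How many of all genes passed in this way was not counted. Of the 45 differences, 32 were below 0 and 13 above, with a median of -0.07, against a median of 0.01 and 47.8% below 0 over all genes.

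**Figure D1:**
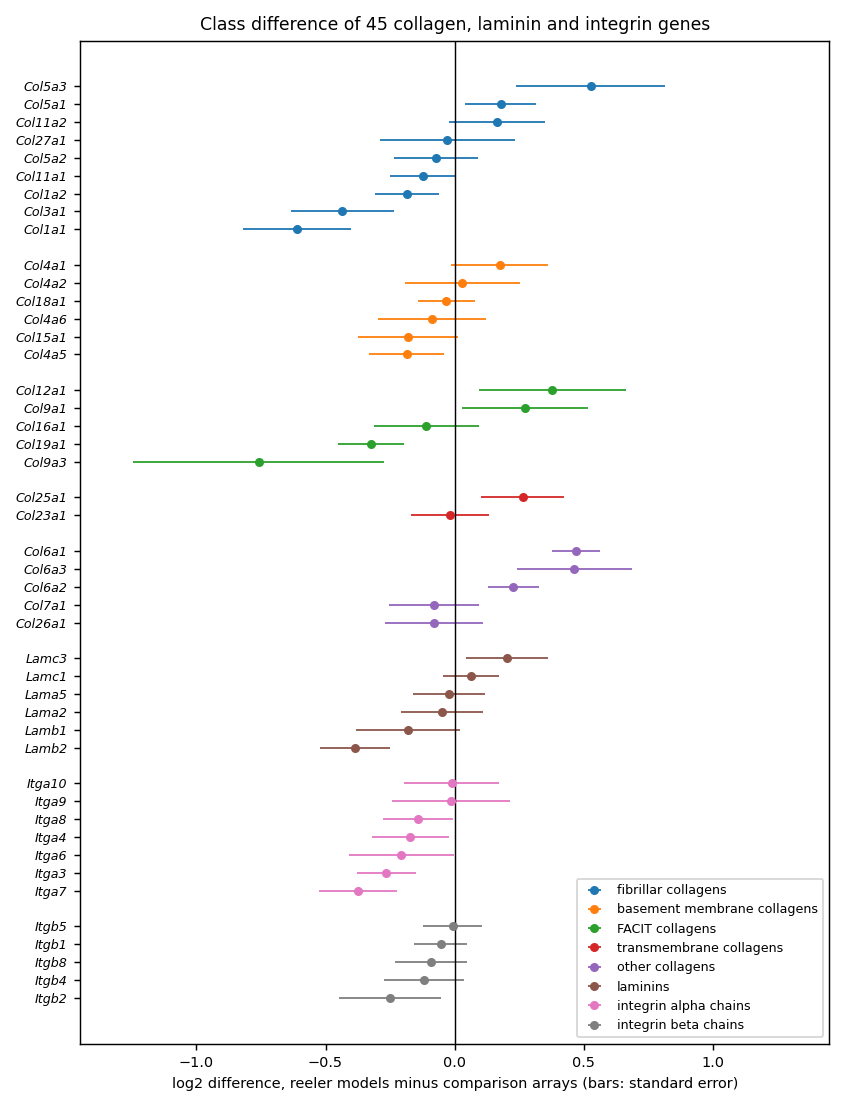
Each point is 1 gene's log2 class difference (reeler models minus comparison arrays, 3 arrays each), grouped by role, and the bars are limma's standard errors. Col1a1 (-0.61), Col3a1 (-0.44) and Lamb2 (-0.39) lie left of 0, Col5a3 (0.53), Col6a1 (0.47) and Col6a3 (0.46) lie farthest right of it, and all 12 integrins lie at or left of 0.

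The fibrillar collagens are the rod-like chains that assemble into the fibres of connective tissue. Of 11 measured, 9 passed the signal minimum. Col1a1 encodes the main chain of type I collagen, and it read 208 on the WT, 124 on the Vldlr KO and 185 on the Apoer2 KO array, against 105 on the Dab1 KO, 126 on the Reln KO and 76.5 on the double KO array. The WT and Apoer2 KO arrays were high and the double KO array was lowest, and the classes overlapped only where the Vldlr KO array fell just under the Reln KO array. The difference was -0.61 (SE 0.21, 1.53-fold lower, adjusted p = 0.376 in limma). A second Col1a1 probe set ran the same way with a smaller difference (-0.29), from 87.0 on the double KO to 158 on the Vldlr KO array, and there WT (95.0) read low.

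Its partner chain in type I collagen, Col1a2, read 527, 503 and 611 on the WT, Vldlr KO and Apoer2 KO arrays and 558, 442 and 438 on the Dab1, Reln and double KO arrays. Here the Dab1 KO array lay among the comparison arrays and only the Reln and double KO arrays lay below them. The difference of -0.18 (SE 0.12, adjusted p = 0.595 in limma) was larger, at -0.45, at a second probe set that read 156 and 140.0 on the Reln and double KO arrays against 219.5 to 274 on the other 4.

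Col3a1, the chain of type III collagen found beside type I, read 213, 297 and 231 on the WT, Vldlr KO and Apoer2 KO arrays and 202, 209.9 and 122 on the Dab1, Reln and double KO arrays. The classes did not overlap, but the Reln KO array lay only just below WT and the double KO array made up most of the gap. The difference was -0.44 (SE 0.20, 1.35-fold lower, adjusted p = 0.469 in limma), and it was -0.22 without the double KO array. A second Col3a1 probe set, below the signal minimum (mean 42.4), gave 0.18, with 41.9 on the double KO array and 21.4 to 64.2 on the others. Across Col1a1, Col1a2 and Col3a1, a trio singled out after the values were seen, the double KO array was the lowest of the 6 every time, and the summed signal was 636 there against 778 to 1027 on the others.

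The promoter windows of Col1a2 and Col3a1 are shown as those of 2 chains that both read lowest on the double KO array. The Col1a1 window was not among the sequences used here. Capitals mark 3 short motifs searched on both strands, the CCAAT box (CCAAT), the GC box (GGGCGG) and the TATA box (TATAAA), in windows from 250 bases before to 50 after the transcript start (RefSeq, GRCm38.p6). Among all 32851 windows, 37.4% held a CCAAT box, 35.7% a GC box and 13.6% this TATA box.
Col1a2 (chr6:4505368-4505667, plus strand): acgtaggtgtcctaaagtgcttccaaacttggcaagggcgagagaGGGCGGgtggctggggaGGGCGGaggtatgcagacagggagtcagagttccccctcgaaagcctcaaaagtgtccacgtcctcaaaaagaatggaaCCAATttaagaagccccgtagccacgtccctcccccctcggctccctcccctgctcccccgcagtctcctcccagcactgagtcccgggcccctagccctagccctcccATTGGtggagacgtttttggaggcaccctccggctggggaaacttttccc
Col3a1 (chr1:45311288-45311587, plus strand): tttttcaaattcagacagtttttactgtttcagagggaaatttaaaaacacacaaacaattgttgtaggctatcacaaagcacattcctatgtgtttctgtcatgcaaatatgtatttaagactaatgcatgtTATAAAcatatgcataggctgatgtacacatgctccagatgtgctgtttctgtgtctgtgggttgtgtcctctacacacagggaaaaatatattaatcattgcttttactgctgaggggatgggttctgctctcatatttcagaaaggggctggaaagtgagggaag
The Col1a2 window held 2 CCAAT and 2 GC boxes, and that of Col3a1 held 1 TATA box and neither of the others. A match here is a description of letters, not of factor binding.

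The other fibrillar chains did not follow types I and III. Col5a1 and Col5a2 encode chains of type V collagen, which regulates fibre width, and differed by 0.18 and -0.07. Col5a3, another type V chain, read 121, 124 and 145 on the WT, Vldlr KO and Apoer2 KO arrays, 148 and 144 on the Dab1 and double KO arrays, and 359 on the Reln KO array. Only the Reln KO array stood away from the rest, 1.38 above WT on the log2 scale. The class difference of Col5a3 was the highest of the 45 genes, at 0.53 (SE 0.29, adjusted p = 0.532 in limma), and it was 0.14 without the Reln KO array. Col27a1, a fibrillar collagen known from cartilage, was also highest on the Reln KO array, at 421 against 169.7 to 261 elsewhere, and its second probe set read 419 there against 141 to 217. Because the Dab1 KO array was lowest for Col27a1 (169.7), the class difference was near 0 (-0.03), and it was 0.29 at the second probe set. Type XI chains Col11a1 (-0.12) and Col11a2 (0.16) lay within their spread, with Col11a2 ranging from 147 on the Reln KO to 266 on the Dab1 KO array.

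The 9 fibrillar collagens had a median class difference of -0.07, with 6 below and 3 above 0. Against WT, their median was -0.001 on the Vldlr KO, -0.09 on the Apoer2 KO, -0.04 on the Dab1 KO, -0.14 on the Reln KO and -0.25 on the double KO array. The median class difference moved from -0.0145 without the Vldlr KO array to -0.13 without the double KO array.

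**Figure D2:**
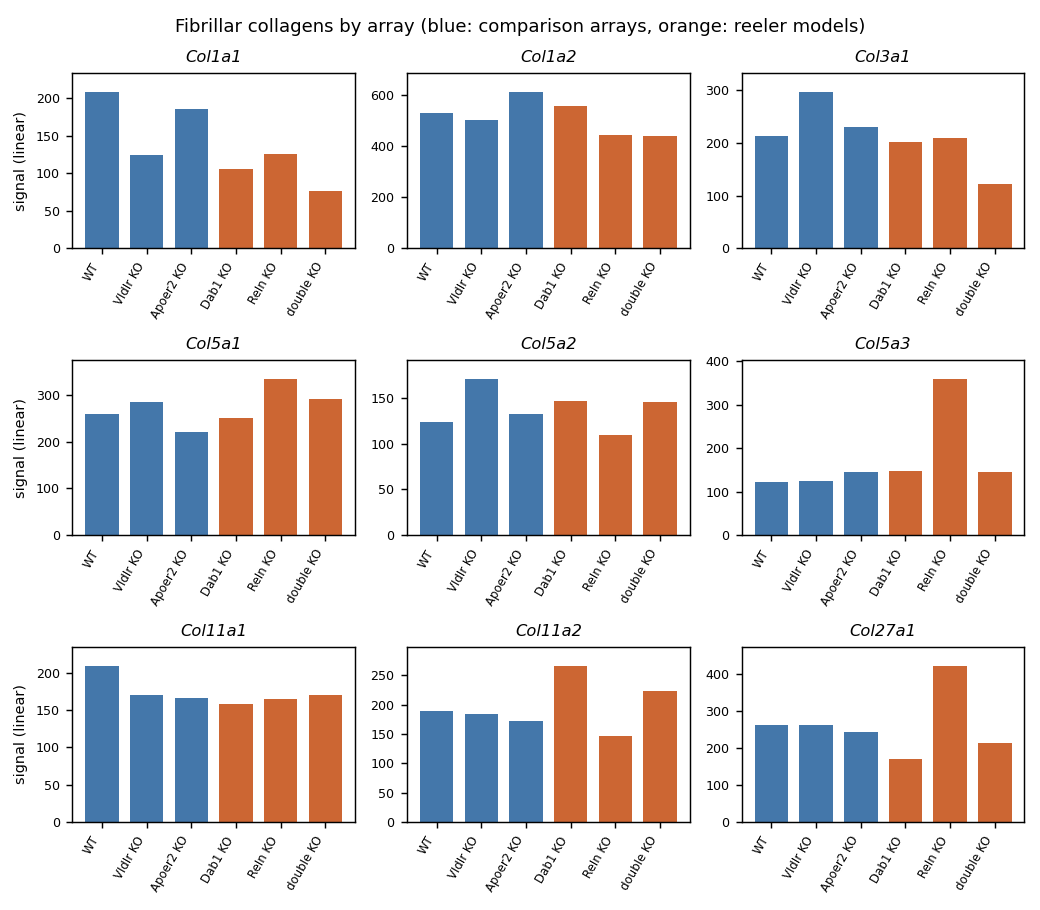
Bars give the deposited linear signal of the 9 fibrillar collagens on each array (1 array per bar, axis from 0 and set per gene), blue for comparison arrays and orange for reeler models. Col1a1, Col1a2 and Col3a1 are lowest on the double KO array (76.5, 438 and 122), and Col5a3 and Col27a1 are highest on the Reln KO array (359 and 421).

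Genes of meningeal fibroblasts lay on both sides of 0. Of 21 listed, 15 passed the signal minimum, 10 of them were below 0 and none passed the adjusted p, with a median class difference of -0.05. Lowest was Igfbp2 (-0.42), a growth factor binding protein gene. Dcn, the collagen-binding proteoglycan decorin, read 407 to 446 in the reeler models and 478 to 581 in the comparison arrays (difference -0.31, adjusted p = 0.366 in limma), and the sulfate transporter gene Slc13a4 read 137 to 142 against 172 to 209 (-0.39, adjusted p = 0.345 in limma). The transcription factor gene Foxc1 (-0.05) and Fmod (0.0007) lay near 0. Highest were Aldh1a2 (0.13), a retinoic acid synthesis enzyme, and the transporter gene Slc22a6 (0.08), both with overlap. The summed signal of the list was 10907 to 12198 in the reeler models and 10765 to 12421 in the comparison arrays, and overlapped. The part of meningeal cells in the collagen values was not tested.

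The genes that fold and process collagen were taken from a list of 29, of which 25 had a probe set and 19 passed the signal minimum. None passed the adjusted p in limma, 12 were below and 7 above 0, and the median was -0.08. Pcolce, an enhancer of procollagen cleavage, read 102 to 147 in the reeler models and 152 to 190.1 in the comparison arrays (-0.41, SE 0.15, adjusted p = 0.416). Serpinh1, the collagen chaperone Hsp47, read 196 to 266.0 against 266.2 to 378 (-0.38, SE 0.16, adjusted p = 0.450), and P4ha1, a proline hydroxylase, differed by -0.38 with overlap. At the other end stood Ctsk (0.31), a collagen-degrading protease, and Adamts3 (0.30), a procollagen protease, both with overlap. Higher without overlap were Sparc, a collagen-binding matrix protein gene (0.28, SE 0.09, adjusted p = 0.345), and P4hb, a subunit of the proline hydroxylase (0.17, SE 0.08, adjusted p = 0.451). The summed signal of the 19, to which Sparc gave the most, was 12530.5 to 13180 in the reeler models and 11364 to 12156 in the comparison arrays.

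Type VI collagen, a microfibril of connective tissue and basement membrane zones made of 3 different chains, was above 0 at each chain. Col6a1 read 473, 499.5 and 451 on the WT, Vldlr KO and Apoer2 KO arrays and 669, 701 and 632 on the Dab1, Reln and double KO arrays. Every reeler model lay above every comparison array, with a wide gap between the classes. The difference was 0.47 (SE 0.09, 1.38-fold higher), with an adjusted p = 0.147 in limma, and it was 0.40 to 0.51 over all 16 alternatives (adjusted p 0.130 to 0.842).

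Col6a2 read 389, 381 and 401 on the WT, Vldlr KO and Apoer2 KO arrays and 502, 448 and 436 on the Dab1, Reln and double KO arrays. These classes did not overlap either, though the difference was smaller, at 0.23 (SE 0.10, adjusted p = 0.449 in limma), and a second probe set gave 0.23 as well. Col6a3, the longest of these chains, read 121, 179 and 121 against 191, 282 and 149 in the same order. Its Reln KO value was highest, 1.06 above WT on the log2 scale, but the double KO array lay below the Vldlr KO array, so the classes overlapped (0.46, SE 0.22, adjusted p = 0.480 in limma). Picked out after its values were seen, the trio had a median difference of 0.46, and all 3 were above 0 under each of the 16 alternatives that kept them, Col6a3 being below the stricter signal minimum. That median was 0.15 with the cross covariate and 0.25 without the Reln KO array, where Col6a3 was 0.0906 and 0.25. The cross covariate marks the Dab1 and Reln KO arrays, so the double KO array alone then stands against the 3 comparison arrays.

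The type VI windows are shown because their signals ran the same way on the reeler models. Col6a1 and Col6a2 are neighbours on chromosome 10, with Col6a3 on chromosome 1.
Col6a1 (chr10:76725995-76726294, minus strand): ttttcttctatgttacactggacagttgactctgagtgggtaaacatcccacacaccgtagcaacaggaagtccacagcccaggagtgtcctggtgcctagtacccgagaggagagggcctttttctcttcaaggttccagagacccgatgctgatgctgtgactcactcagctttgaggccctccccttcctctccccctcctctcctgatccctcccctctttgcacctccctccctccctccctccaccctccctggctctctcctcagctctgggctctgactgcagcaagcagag
Col6a2 (chr10:76623581-76623880, minus strand): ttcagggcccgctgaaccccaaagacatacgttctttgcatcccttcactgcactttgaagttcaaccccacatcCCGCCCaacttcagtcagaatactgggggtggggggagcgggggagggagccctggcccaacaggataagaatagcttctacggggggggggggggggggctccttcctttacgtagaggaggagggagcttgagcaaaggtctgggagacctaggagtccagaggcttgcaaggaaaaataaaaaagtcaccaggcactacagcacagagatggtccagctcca
Col6a3 (chr1:90843922-90844221, minus strand): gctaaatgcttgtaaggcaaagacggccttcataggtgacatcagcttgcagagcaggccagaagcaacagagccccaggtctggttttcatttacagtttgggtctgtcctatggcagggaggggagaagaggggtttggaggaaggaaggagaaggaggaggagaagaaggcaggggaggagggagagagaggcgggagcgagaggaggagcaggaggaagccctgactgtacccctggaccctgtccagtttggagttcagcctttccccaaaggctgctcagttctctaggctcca
The 3 motifs gave 1 match in these windows, a GC box in that of Col6a2.

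Basement membrane collagens did not separate the classes. Type IV collagen is the sheet-forming collagen of basement membranes, and its common molecule joins the chains of Col4a1 and Col4a2. Col4a1 read 473, 716 and 491 on the WT, Vldlr KO and Apoer2 KO arrays and 578, 792 and 531 on the Dab1, Reln and double KO arrays. Col4a2 read 369, 574 and 424 and then 388, 655 and 376 in the same order. For both chains the Reln KO and Vldlr KO arrays were high, the first a reeler model and the second not, and the class differences were 0.17 (SE 0.19) and 0.03 (SE 0.22). Their median difference from WT was 0.75 on the Reln KO and 0.59 on the Vldlr KO array, against 0.09 to 0.17 on the other 3. The second Col4a1 probe set did not show this: it read 464 on WT, 383 on the Vldlr KO and 434 on the Reln KO array, with a class difference of -0.11.

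Genes of endothelial cells, which lay down much of this membrane, are given beside these values. Of 15 listed, 13 passed the signal minimum, and their summed signal was 4496 on the Vldlr KO and 4595 on the Reln KO array, within the 4311 to 4840 of the other 4. Against WT, 9 were above and 4 below on the Vldlr KO array (median 0.10), and 6 above and 7 below on the Reln KO array (median -0.09). Their class differences ran from -0.41 (Tek) to 0.29 (Mfsd2a). Mural cell genes, 8 of 12 past the minimum, summed to 3036 and 2475 on those arrays and to 2119 to 3466 on the others. Most of that range came from the pericyte gene Rgs5, at 2019 on WT, 886 on the Reln KO and 705 on the double KO array. The part of endothelial and mural cells in the type IV values was not tested.

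The Col4a1 and Col4a2 windows are shown because the genes lie head to head and share their start region.
Col4a1 (chr8:11312777-11313076, minus strand): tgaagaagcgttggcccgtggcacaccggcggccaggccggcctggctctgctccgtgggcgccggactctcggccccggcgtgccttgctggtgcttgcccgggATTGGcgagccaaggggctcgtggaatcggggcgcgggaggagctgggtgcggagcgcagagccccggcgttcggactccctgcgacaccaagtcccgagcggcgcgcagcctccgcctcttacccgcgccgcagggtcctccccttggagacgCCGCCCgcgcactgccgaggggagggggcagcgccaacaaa
Col4a2 (chr8:11312555-11312854, plus strand): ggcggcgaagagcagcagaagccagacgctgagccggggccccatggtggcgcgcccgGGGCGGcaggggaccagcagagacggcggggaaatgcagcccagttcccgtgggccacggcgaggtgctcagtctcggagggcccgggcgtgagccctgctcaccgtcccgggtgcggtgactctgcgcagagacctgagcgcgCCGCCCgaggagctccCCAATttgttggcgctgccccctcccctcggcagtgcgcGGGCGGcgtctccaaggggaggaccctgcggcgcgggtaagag
Their transcript starts lie 21 bases apart on opposite strands, and the windows share 78 bases. The Col4a1 window held 1 CCAAT and 1 GC box, and the Col4a2 window 1 CCAAT and 3 GC boxes, counting matches in the shared bases for each.

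Other basement membrane collagens stayed within their spread. The X-linked neighbours Col4a5 (-0.19) and Col4a6 (-0.09) encode further type IV chains, and Col15a1 (-0.18) and Col18a1 (-0.03) encode collagens with endostatin-like ends. Both filter-passing probe sets of Col18a1 were below 0. The 6 basement membrane collagens had a median class difference of -0.06, with 4 below and 2 above 0.

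**Figure D3:**
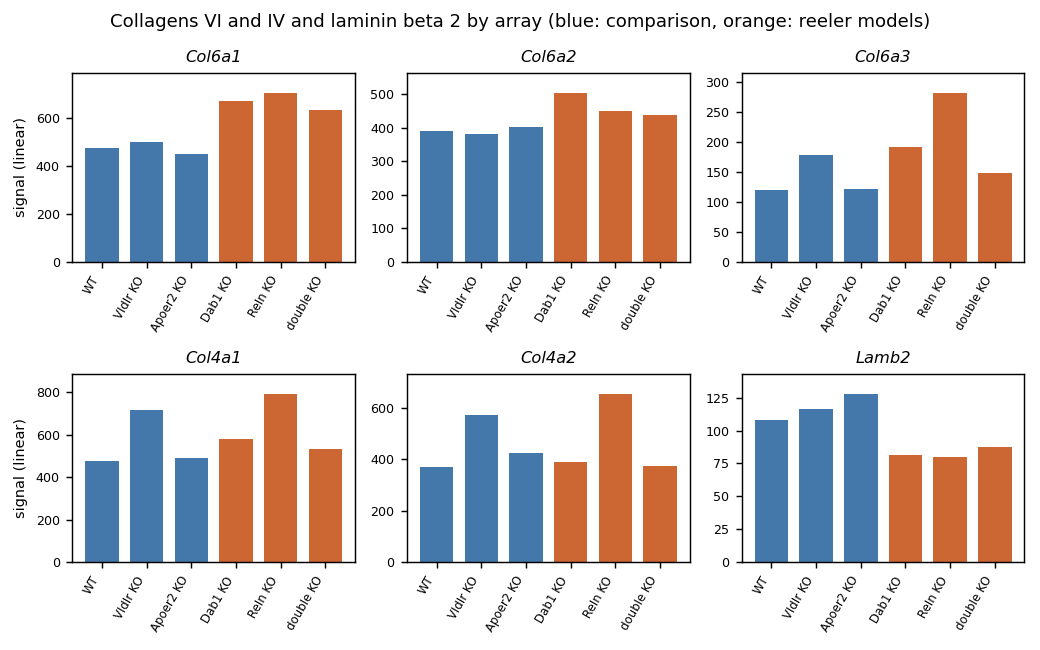
Bars give the linear signal of 3 type VI chains, 2 type IV chains and Lamb2 on each array (axis from 0 and set per gene), blue for comparison arrays and orange for reeler models. The orange bars of Col6a1 (632 to 701) lie above the blue (451 to 499.5), Col4a1 and Col4a2 are highest on the Reln KO and Vldlr KO arrays, and the orange bars of Lamb2 (80.2 to 87.8) lie below the blue (108 to 128).

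FACIT collagens, which sit on fibre surfaces and do not form fibres themselves, held the class difference farthest from 0 among the 45, at a gene with wide spread. Col9a3, a type IX chain known from cartilage, read 214, 357 and 238 on the WT, Vldlr KO and Apoer2 KO arrays and 392, 59.7 and 111 on the Dab1, Reln and double KO arrays. The Reln and double KO arrays were low and the Dab1 KO array was the highest of all 6, so the class difference of -0.76 (SE 0.49, adjusted p = 0.580 in limma) joins unlike arrays. It was -0.27 without the Reln KO array and -1.40 without the Dab1 KO array. The second Col9a3 probe set read 111 on the double KO and 127 on the Reln KO array, but WT (116) was as low there, and its difference was -0.12.

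Col19a1, a FACIT collagen expressed by interneurons in the brain, read 250, 317 and 264 on the comparison arrays and 217, 194 and 234 on the Dab1, Reln and double KO arrays. The classes did not overlap (-0.32, SE 0.13, adjusted p = 0.425 in limma), and the second probe set (-0.18) overlapped, with 259 on the double KO array. Col12a1 was low on the Vldlr KO array, at 55.5 against 114 to 176 on the other 5, a log2 difference of -1.29 from WT. Its class difference of 0.38 was 0.035 without that array and turned to -0.23 with WT as the only comparison array. Col9a1 (0.27, with -0.27 at its second probe set) and Col16a1 (-0.11) did not separate the classes.

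Transmembrane collagens span the cell surface, and 2 of 4 passed the signal minimum. Col25a1, the collagen whose shed part binds amyloid, read 266 on WT and 343 to 482 on the 5 knockouts, with the Reln KO array highest and a class difference of 0.26 (SE 0.16, adjusted p = 0.568 in limma). At its second probe set (0.19) the Reln KO array was again highest (194), but WT (118.0) lay above the double KO array (115.4). Col23a1 differed by -0.02. The anchoring fibril gene Col7a1 (-0.08) and Col26a1 (-0.08) also lay near 0.

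Laminins are 3-chain proteins that give basement membranes their cell-binding surface. Lamb2, the beta 2 chain of vessel, glial and synaptic basement membranes, read 108, 116 and 128 on the WT, Vldlr KO and Apoer2 KO arrays and 81.4, 80.2 and 87.8 on the Dab1, Reln and double KO arrays. Each reeler model lay below each comparison array, and the 3 reeler values were close together. The difference was -0.39 (SE 0.14, 1.31-fold lower, adjusted p = 0.388 in limma), at the only Lamb2 probe set. The mean Lamb2 signal of the reeler models (83.1) was below the minimum of 89 that its overall mean passed, as it was for the leukocyte integrin gene Itgb2 (81.7).

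The other laminin chains past the minimum did not share this pattern. Lamc1, the common gamma chain, read 384, 349 and 309.7 on the comparison arrays and 361, 381 and 348 on the reeler models, and differed by 0.06 (SE 0.11). Lamb1, the other widespread beta chain, read 176 on the Vldlr KO array and 94.0 to 139.9 on the other 5 (-0.18). The alpha chains Lama2 (-0.05), whose loss causes a muscular dystrophy, and Lama5 (-0.02, with 0.06 at its second probe set) lay near 0. Lamc3, a chain of the pial basement membrane, differed by 0.20, with the double KO array (144) highest. A second Lamc3 probe set, below the signal minimum (mean 63.0), gave -0.42, with 56.7 on the double KO array. The 6 laminins had a median class difference of -0.04, with 4 below and 2 above 0.

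Integrins of neurons and glia were taken apart from the collagens, as 10 listed chains of which 8 passed the signal minimum. Itga3, the alpha 3 chain that pairs with Itgb1, read 444, 413 and 487 on the WT, Vldlr KO and Apoer2 KO arrays and 347, 418 and 342 on the Dab1, Reln and double KO arrays. The Dab1 and double KO arrays were low, while the Reln KO array, which lacks the ligand, lay among the comparison arrays. The difference was -0.26 (SE 0.11, adjusted p = 0.451 in limma), and a second, dimmer Itga3 probe set gave 0.12 with the Vldlr KO array lowest (64.5).

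Itga7, a laminin-binding alpha chain best known from muscle, read 198, 177 and 194 on the comparison arrays and 137, 173 and 114 on the Dab1, Reln and double KO arrays. The classes did not overlap, though the Reln KO array came within a few units of the Vldlr KO array. Its difference was -0.37 (SE 0.15, 1.30-fold lower, adjusted p = 0.431 in limma), and -0.26 without the double KO array. Itga6, a further laminin-binding alpha chain, was high on the Vldlr KO array (482) and read 245 to 348 on the other 5. Its difference of -0.21 turned to 0.02 without the Vldlr KO array. A second Itga6 probe set, below the minimum (mean 79.6), gave 0.11, with 73.1 on the Vldlr KO array and 92.8 on WT.

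Itgb1, the beta chain that pairs with Itga3, Itga7 and Itga6 alike, overlapped between the classes, with 496, 560.0 and 583 on the comparison arrays and 554, 489.7 and 529.5 on the reeler models (-0.05, SE 0.10). Itgb8, whose protein activates TGF-beta around brain vessels, read 1074, 876 and 937 and then 1090, 748 and 890.1, with the Reln KO array lowest (-0.09, SE 0.14). Itga8 (-0.14), Itgb4 (-0.12) and Itgb5 (-0.01), chains that bind RGD-bearing proteins or, for Itgb4, laminin, overlapped between the classes at the probe sets used. All 4 Itgb5 probe sets past the minimum were below 0 (-0.33 to -0.01), the brightest least. A dimmer set read 134 to 159 in the reeler models and 163 to 182 in the comparison arrays (-0.21), without overlap. Another read 101.5 to 119 against 128 to 187 (-0.33), also without overlap. Itga5 and Itgb3, the other chains of this list, had mean signals of 75.2 and 20.6, below the minimum.

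All 8 of these differences were below 0, with a median of -0.13, and so were those of the 4 other integrins that passed the minimum, Itga4 (-0.17), Itga9 (-0.01), Itga10 (-0.01) and Itgb2 (-0.25). Itga4 and Itgb2 are chains of leukocyte integrins, and 8 of 9 microglial genes past the signal minimum (13 listed) were below 0 too, with a median of -0.16 and summed signals of 3831 to 4582 in the reeler models and 4364 to 4742 in the comparison arrays. The part of those cells in the integrin values was not tested. Of the 12 integrins 0 passed the adjusted p in limma (0.130% of all genes), 2 were at an unadjusted p below 0.05 (11.0% of all genes), and 1 had classes that did not overlap (17.6% of all genes). The count below 0 was 11 of 12 under quantile normalization, where Itgb5 turned, 10 with the receptor cross as covariate and 9 without the Dab1 KO array or with WT as the only comparison array. Against WT, the 8 had medians of -0.12, -0.02, -0.17, -0.10 and -0.18 on the Vldlr, Apoer2, Dab1, Reln and double KO arrays. The Apoer2 KO median turned to 0.13 under the stricter filter and 0.0527 with _x_at probe sets last.

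**Figure D4:**
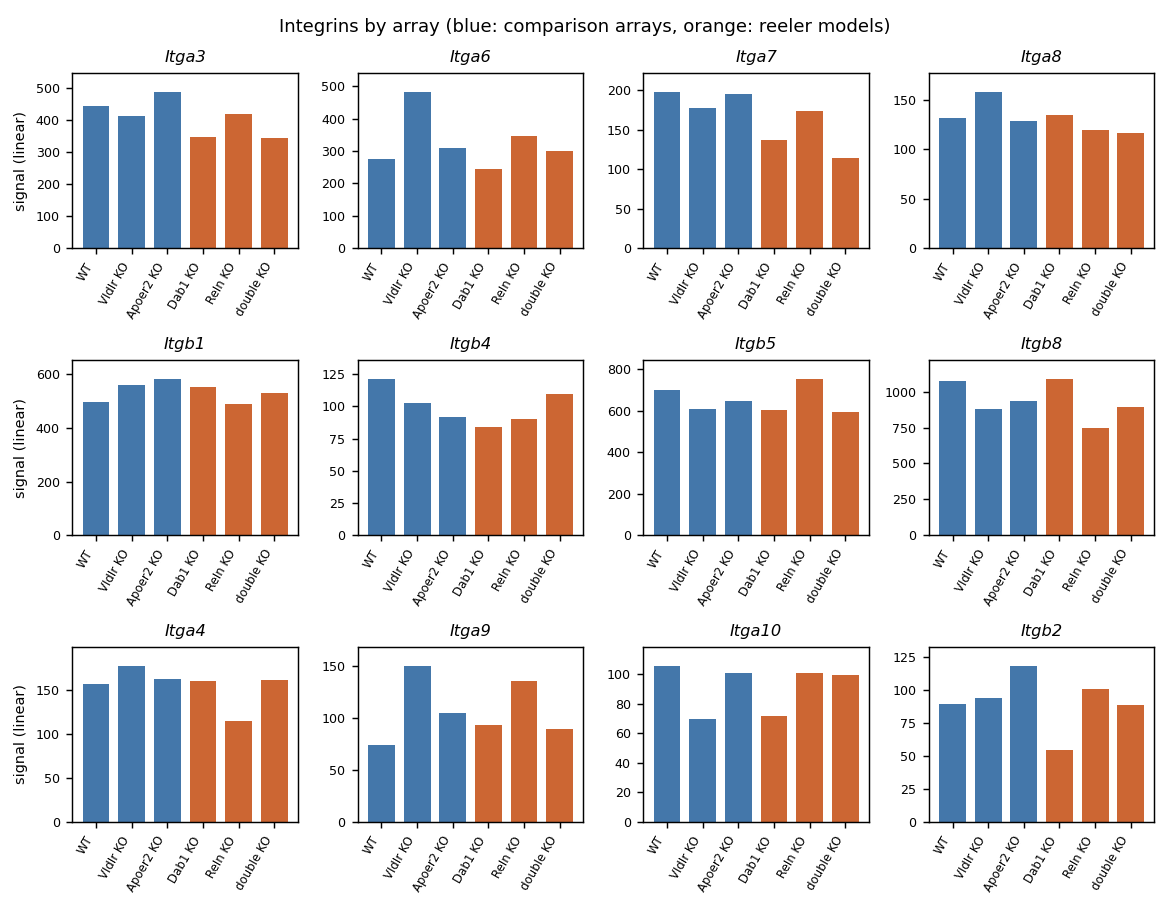
Bars give the linear signal of the 12 integrins on each array (axis from 0 and set per gene), blue for comparison arrays and orange for reeler models, with the 8 of neurons and glia first. Itga3 is lowest on the double KO (342) and Dab1 KO (347) arrays, Itga7 is lowest on the double KO array (114), and Itgb1 stays between 489.7 and 583.

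Integrins with a letter in their symbol ran the other way where measured. Itgav, the alpha v chain that pairs with Itgb3, Itgb5 and Itgb8, read 1437 to 1725 in the reeler models and 1374 to 1434 in the comparison arrays, without overlap but by only 0.13 (adjusted p = 0.596 in limma). Itga2b, the platelet chain, differed by 0.21 with overlap, and the other 4 of these with a probe set did not pass the minimum.

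Matrix receptors and integrin signalling genes were 25 of 29 listed past the signal minimum, with 15 below 0, 10 above, none past the adjusted p in limma and a median of -0.07. Pxn, the focal adhesion adaptor paxillin, read 527 to 701 in the reeler models and 883 to 1006 in the comparison arrays (-0.63, SE 0.12, adjusted p = 0.147 in limma). Cd151, a tetraspanin that partners laminin-binding integrins, read 216 to 321 against 355 to 389 (-0.39, SE 0.15, adjusted p = 0.417 in limma). At the top stood Cd44 (0.32), a hyaluronan receptor that read 482 on the Reln KO array and 87.6 to 146 on the others, and the kinase gene Src (0.30). The dystroglycan gene Dag1, which encodes the other main laminin receptor, differed by 0.08.

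Other matrix proteins were 24 of 33 listed past the minimum, with 13 above and 11 below 0, a median of 0.025 and none past the adjusted p in limma. Thbs3, a thrombospondin, read 192 to 309.4 in the reeler models and 136 to 171 in the comparison arrays (0.57, SE 0.17, adjusted p = 0.344 in limma), and the proteoglycan gene Vcan differed by 0.35 without overlap. The basement membrane linker Nid1 (-0.25) and the tenascin gene Tnr (-0.20) were lowest. Hspg2 (0.12), Agrn (-0.10) and Fn1 (-0.09), which encode perlecan, agrin and fibronectin, lay near 0.

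Each knockout array was also set against WT, with no test, as there is 1 array per genotype and all share the WT array. On the Reln KO array Col5a3 (1.38) and Col6a3 (1.06) were at least 2-fold higher, 4.44% of the 45 genes against 1.19% of all genes. There Col9a3 (-1.46) was at least 2-fold lower, 2.22% against 1.34%, and all genes past 2-fold in either direction made up 2.53%. The second Col9a3 probe set was not lower, with 127 on the Reln KO array and 116 on WT. On the double KO array Col1a1 (-1.18) was lower (2.22%, against 0.613% of all genes) and 0 were higher, against 0.328% (0.941% in either direction). The second Col1a1 probe set did not show this drop, with 87.0 on the double KO array and 95.0 on WT. On the Vldlr KO array Col12a1 (-1.29) was lower (2.22%, against 0.458%) and 0 were higher, against 0.242% (0.700% in either direction). On the Apoer2 KO array 0 of the 45 reached 2-fold, against 0.199% of all genes higher, 0.207% lower and 0.406% in either direction. On the Dab1 KO array 0 did so either, against 0.294% higher, 0.743% lower and 1.04% in either direction. With 1 or 2 genes per array, these shares rest on single genes. The Reln KO array was the highest of the 6 for 12 genes and the lowest for another 12, against 22.1% and 25.1% of all genes.

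Single marker genes of other cells were high on the Reln KO array, as Col5a3, Col6a3 and Col27a1 were. Chosen after its values were seen, Mgp, a matrix protein of arteries and meninges, read 1865 there against 422 to 1111 elsewhere, and the smooth muscle gene Tagln read 251 against 48.4 to 96.5. Over the lists, 10 of 15 meningeal genes were below WT on the Reln KO array and 5 above (median -0.13). Above it, besides Mgp (1.40), were Aldh1a2 (0.60) and Foxc1 (0.24) among others. Among those below were Slc6a13 (-1.32), Igfbp2 (-0.84) and Dcn (-0.48), which were below WT on every knockout array. The 8 mural genes split 4 above and 4 below WT there, with Rgs5 at -1.16. Their part in the collagen values was not tested.

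Within the receptor cross, the loss of both receptors can be read beside each single loss. Col1a1 read 208 with both receptors, 124 without Vldlr, 185 without apoER2 and 76.5 without both. Col3a1 read 213, 297, 231 and 122 in that order, Col6a1 read 473, 499.5, 451 and 632, and Itga7 read 198, 177, 194 and 114. For these 4 genes, chosen after their class differences were seen, the double KO array lay outside the range of the other 3 at the probe sets used. Col5a3 (121, 124, 145 and 144) and Col6a3 (121, 179, 121 and 149) did not show this, the double KO array lying within the range of the other 3. Nor did the second, dimmer Col3a1 probe set, at 31.7, 64.2, 21.4 and 41.9. The second Col1a1 probe set read 95.0, 158, 131 and 87.0, with the double KO array lowest but near WT. With 1 array each, none of this has a replicate check. The share of all genes with the double KO array outside the other 3 was not counted.

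**Figure D5:**
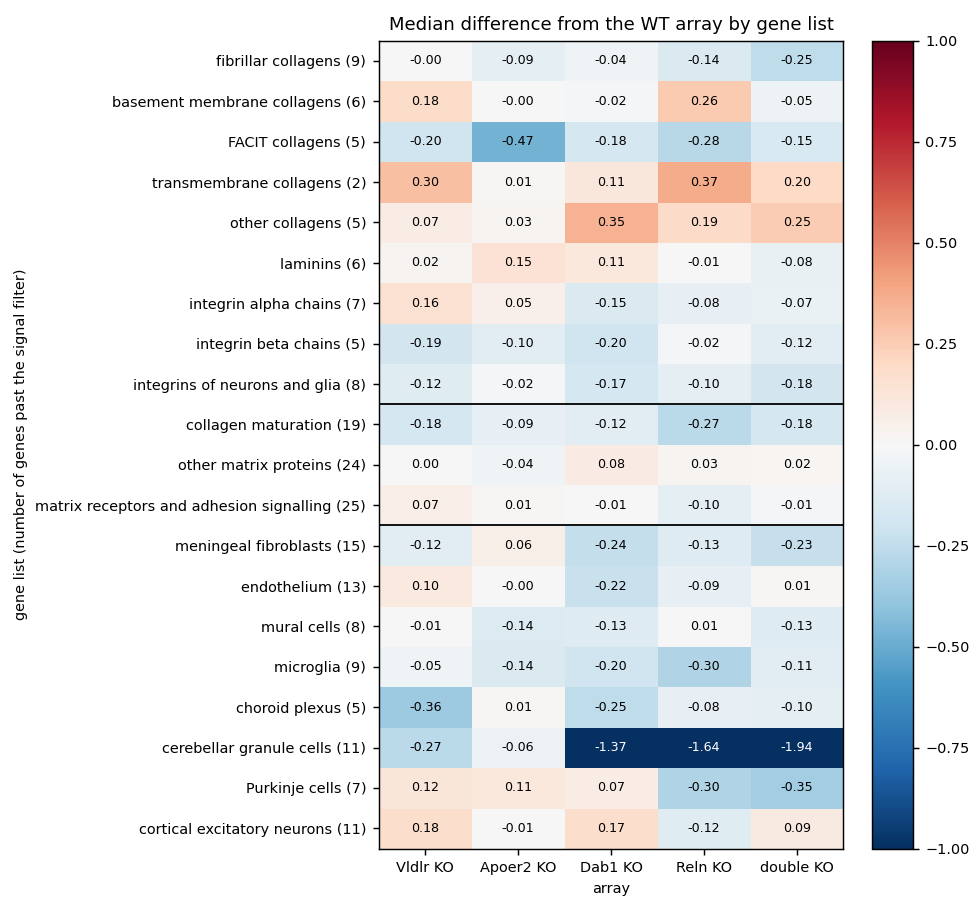
Each cell gives the median log2 difference from the WT array over the genes of a list (rows, number of genes past the signal minimum in brackets) on each knockout array (columns), in blue for lower and red for higher. The fibrillar collagens reach -0.25 on the double KO array and the basement membrane collagens 0.26 on the Reln KO array, while cerebellar granule cell genes lie at -1.37 to -1.94 on the reeler models.

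Probe sets of a gene can answer differently. Of 17 genes with over 1 probe set past the minimum, 12 had class differences of 1 sign and 5 did not (Col27a1, Col4a1, Col9a1, Itga3 and Lama5). The 25 genes below the minimum had mean signals of 6.3 to 81.0. Nearest to it inside were Itgb2 (91.3) and Itga10 (91.5), and outside Col22a1 (81.0) and Itga5 (75.2).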

How the data were processed

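Per the submitters' processing notes, the authors used Affymetrix Expression Console and MAS5, and the deposited intensities are linear; tool versions and a genome build were not stated in the labels. Each array's mean, trimmed by 2% at both ends, was 249.4 to 249.5. Of 45101 probe sets, 34958 named 1 gene in the platform annotation, 932 several, and 9211 are unnamed here. A gene was read from its brightest probe set by mean over arrays, and a mean of at least 89 was required. The fit used log2(signal + 28.1), the constant being the 25th percentile of the table, with limma 3.58.1 in R 4.3.3 (trended empirical Bayes, Benjamini-Hochberg adjustment over 11578 genes), which was tested on simulated data. The members and lists were chosen with earlier results of these data known, so lists are described by counts and medians. Named genes are all fibrillar collagens and integrins of neurons and glia, genes past a threshold, without class overlap, at least 2-fold from WT or with disagreeing probe sets, the 5 brightest, and the 2 highest and 2 lowest of the other role groups and of the lists of collagen maturation, other matrix proteins and matrix receptors; marker genes of cell types and other genes named for their role were chosen after their values were seen. Promoter windows came from RefSeq (34 of 45 genes matched). Alternatives were other pseudocounts, filters, normalization, probe set choices, variance prior, a cross covariate, WT alone and leaving out each array. With the cross covariate, every class difference rests on the double KO array as the only reeler model.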

Additional observations from a re-analysis of the deposited data

How the results depend on the processing

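Under all 16 alternatives 0 of the 45 genes passed the adjusted p in either direction, and 21 of the 45 kept the sign of their class difference. With 1 array per genotype, the number of arrays limits every value. Without each array in turn, the genes past the adjusted p over the whole table numbered 1 to 23 (15 with all arrays), the 45 genes held 1 to 9 at an unadjusted p below 0.05 and 9 to 13 without class overlap, fewer arrays leaving less room to overlap. The medians ran from -0.13 to -0.0145 for fibrillar collagens, -0.25 to 0.0944 for FACIT collagens, 0.17 to 0.27 for collagens VI, VII and XXVI, -0.13 to -0.0353 for integrin beta chains and -0.19 to -0.098 for integrins of neurons and glia. With the cross covariate, 9 genes passed in the whole table and 4 of the 45 had an unadjusted p below 0.05, and the medians were 0.16 for FACIT and 0.15 for collagens VI, VII and XXVI. With WT as the only comparison array 23 of the 45 had no class overlap, a single comparison array leaving less room to overlap. Shares of all genes without class overlap or at an unadjusted p below 0.05 are not given for the alternatives. The filter at the 75th percentile kept 12 of the 45, of which 3 had an unadjusted p below 0.05, 2 had no overlap and 0 lay 2-fold from WT on the Vldlr, Reln or double KO array. Groups left with at most 50% of their genes there were given no median. The cause of the other shifts was not tested.

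Among the genes 2-fold from WT, a pseudocount of 1 gave 2 on the Vldlr KO and 1 on the Apoer2 KO array, a pseudocount at the median gave 0 on the Vldlr and double KO arrays, and the mean of all probe sets gave 0 on the double KO array. Medians against WT that moved by more than the spread between arrays were, for integrin beta chains, -0.13 (pseudocount at the median) and -0.12 (quantile) on the Vldlr KO, 0.13 (_x_at probe sets last) on the Apoer2 KO, 0.0199 (stricter filter), -0.28 (mean of all probe sets) and -0.13 (_x_at last) on the Dab1 KO, -0.19 (mean of all probe sets) on the Reln KO, and -0.22 (stricter filter) and -0.0655 (quantile) on the double KO array. Integrins of neurons and glia moved to 0.13 (stricter filter) and 0.0527 (_x_at last) on the Apoer2 KO and -0.0161 (stricter filter) on the Reln KO array. Fibrillar collagens moved to 0.0886 (mean of all probe sets) on the Apoer2 KO, 0.0228 (quantile) on the Dab1 KO, and -0.20 (pseudocount at the median, and quantile) on the double KO array. Laminins moved to 0.0991 and 0.19 (quantile) on the Vldlr and Dab1 KO arrays. Collagens VI, VII and XXVI moved to 0.28 (mean of all probe sets) on the Reln KO, and 0.18 (pseudocount at the median) and 0.32 (quantile) on the double KO array.

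Class differences turned sign with WT as the only comparison array for Col12a1 (-0.23), Col26a1 (0.011), Col4a6 (0.0805), Col5a2 (0.0876), Col9a1 (-0.11), Itga6 (0.0943), Itga9 (0.38), Itgb1 (0.0754), Lama5 (0.16), Lamb1 (0.0851) and Lamc1 (-0.0744). They turned with the cross covariate for Col16a1 (0.16), Col23a1 (0.10), Col26a1 (0.19), Col4a1 (-0.0478), Col4a2 (-0.24), Col5a2 (0.0363), Itga10 (0.10), Itgb4 (0.0538) and Lama5 (0.14). They turned with quantile normalization for Col18a1 (0.0011), Col23a1 (0.0094), Col27a1 (0.0126), Itgb5 (0.0165) and Lama5 (0.0093), and with the mean of all probe sets for Col27a1 (0.13) and Lama5 (0.0193). Leaving out single arrays turned Col11a2 (-0.0007 to 0.38), Col16a1 (-0.25 to 0.0944), Col18a1 (-0.0851 to 0.0231), Col23a1 (-0.13 to 0.0645), Col26a1 (-0.22 to 0.0915), Col27a1 (-0.38 to 0.22), Col4a2 (-0.22 to 0.20), Col4a6 (-0.28 to 0.12), Col5a2 (-0.15 to 0.0433), Col7a1 (-0.25 to 0.0451), Col9a1 (-0.0059 to 0.46), Itga10 (-0.15 to 0.11), Itga6 (-0.36 to 0.0184), Itga9 (-0.21 to 0.19), Itgb5 (-0.11 to 0.0504), Itgb8 (-0.23 to 0.0373), Lama2 (-0.18 to 0.0621), Lama5 (-0.12 to 0.0453), Lamb1 (-0.32 to 0.003) and Lamc1 (-0.0109 to 0.13). No paired analysis was possible because each genotype has 1 array and the labels give no replicate numbers.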
